A study of Mus musculus with 3 samples.

Results

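The genes described here encode the nuclear-encoded subunits of the mitochondrial respiratory chain and of ATP synthase, complexes I to V. They were chosen by symbol, as every row of the count table named Nduf followed by a, b, c, s or v and a number, Sdha to Sdhd, Uqcr, Cyc1, Cox4 to Cox8 or Atp5. This rule found 85 of the 21782 genes in the table. It uses symbols and no measured value, although it was set with earlier results of these data known. Of these, 83 encode subunits or their isoforms. The remaining 2, Atp5s and Atp5sl, carry the name but are not subunits of the enzyme. Ndufab1, the acyl carrier protein of complex I, has a symbol that the rule does not match and is left out. The measurements came from polyA-selected RNA of mouse embryonic fibroblasts (MEFs) of WT genotype, taken from E12.5 embryos and grown, while cycling, in medium with 20% serum. There was 1 library from each of 3 clones, here clone 1, clone 2 and clone 3. All belonged to 1 group without treatment, so the design compares no conditions. The text of the study calls the cultures clones and does not say whether they came from different embryos.

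The libraries held between 22594316 and 25261357 counted reads, so that 3 counts, the limit allowed by a count of 0, equal at most 0.133 CPM, that is, counts per 1000000 of the reads in a library after its total had been scaled by TMM. For the labelled cell type, 10 of 10 fibroblast marker genes were at 1 CPM or more in every clone and together took 4.81 to 5.76% of all reads. The clones were not alike. The 9 macrophage markers examined, such as Csf1r and Tyrobp, were all highest in clone 2 and took 0.0330, 0.150 and 0.0282% of reads in clones 1, 2 and 3. The 6 proliferation markers took 0.0362, 0.0722 and 0.0621%. Of 10 striated muscle markers 2 reached 1 CPM in every clone, and of 8 testis germ cell markers 0 did.

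Complexes I, III and IV pass electrons from NADH to oxygen and pump protons out of the mitochondrial matrix, complex II feeds in electrons from succinate, and complex V uses the returning protons to make ATP. Mitochondrial DNA encodes a few central subunits of complexes I, III, IV and V. All others, including every subunit of complex II, are made from nuclear genes and imported. Several complex IV subunits and one ring subunit of complex V come from small gene families, some members of which are used mainly in heart and skeletal muscle, lung or testis. None of the genes of mitochondrial DNA is in the table, so the nuclear part alone is described.

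Nearly all of these genes were expressed in MEFs. In every clone, 77 of 85 (90.6%) reached 1 CPM, against 52.2% of all genes in the table. These were 34 of 35 genes of complex I, 4 of 4 of complex II, 9 of 9 of complex III, 13 of 20 of complex IV and 15 of 15 of complex V, with Atp5s and Atp5sl. The missing complex IV genes were all alternative isoforms, and the missing complex I gene was Ndufs5. Together the 85 genes took 0.647, 0.665 and 0.658% of the reads in the 3 clones (mean 0.657% ± 0.00926, SD, n = 3). The sum over all members therefore differed little between clones.

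Levels of different genes were compared as CPM per kb of transcript. On this scale the median of the 77 expressed members was 61.7, against 8.48 for all expressed genes, and 73 of the 77 lay above that median. The medians by complex were 42.2 for complex I, 57.5 for complex II, 79.8 for complex III, 116 for complex IV and 103 for complex V. Complex I thus had the lowest level per gene although it has the most subunits. Of the summed CPM of all members, complex V held 39.8% ± 1.86, complex I 22.9% ± 0.988, complex IV 20.2% ± 1.04, complex III 10.9% ± 0.0881 and complex II 6.06% ± 0.167 (SD, n = 3). The length given to a transcript moves these levels. With the length of all annotated exons together the medians were 23.7, 38.1, 46.3, 64.0 and 46.8 for complexes I to V, and complex I stayed lowest and complex IV highest.

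**Figure D1:**
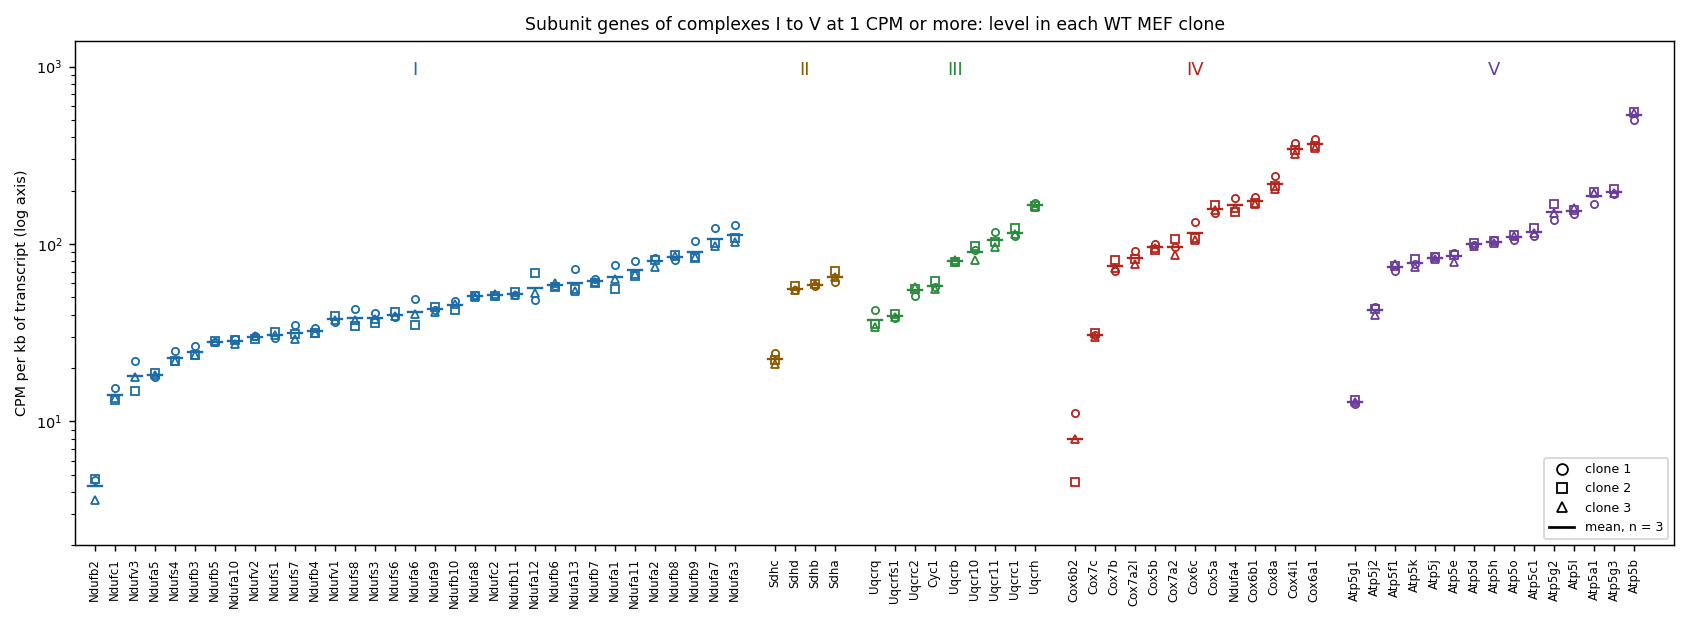
Level of each subunit gene at 1 CPM or more in every clone, as CPM per kb of transcript on a log axis, grouped by complex and ordered by mean; open symbols are clones 1 to 3 and bars the mean of 3, with 1 gene not shown. Atp5b stands highest at 535, Cox6b2 and Ndufb2 lie lowest of the subunit genes shown, and the clones lie close together for most genes.

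Complex I oxidises NADH, and its core subunits carry the redox centres and the quinone site. Ndufs3, a core subunit of the peripheral arm, had 38.3 ± 2.41 CPM per kb and Ndufs8, an iron-sulphur protein, 38.2 ± 4.21. Ndufv1, which binds NADH and FMN, had 37.6 ± 1.52 CPM per kb, and its partner Ndufv2 had 30.0 ± 0.642. Ndufs7, the iron-sulphur protein next to the quinone, had 31.7 ± 3.07 and Ndufs1, the largest core subunit, 30.8 ± 1.1. These 6 subunits thus lay within a narrow range.

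Among the 28 accessory subunits of complex I, Ndufa3 (1111, 857 and 913 counts) and Ndufa7 (1619, 1202 and 1306 counts) were highest per kb, at 113 ± 12.8 and 107 ± 13.9. The lowest with counts were Ndufb2, at 4.34 ± 0.626 CPM per kb, and Ndufc1, at 14.0 ± 1.17. Both values rest on a long annotated transcript. With the shortest transcript that holds the whole coding sequence they became 41.7 and 55.7, in the range of the other subunits.

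Ndufs5 was the exception in complex I. It encodes an accessory subunit of the membrane arm, and it was listed at 0 in all 3 clones, which allows at most 3 counts in each. The gene lies on the minus strand of chromosome 4. A retrocopy of its mRNA, the processed pseudogene BC002163, lies on chromosome 16, and had 11, 11 and 9 counts. Of the 236 stretches of 86 nt, the read length, in the Ndufs5 coding sequence, 234 match BC002163 with at most 2 mismatches. Over the whole annotated transcript, 39.3% of 595 such stretches match it, and the others match no other annotated gene. The first 300 coding bases of both are shown to let a reader see how alike they are. They span chr4:123712843-123716079 on the minus strand, across an intron, and chr16:42955631-42955930 on the plus strand (GRCm38, GENCODE M21 transcripts), and capitals mark the 2 bases that differ.
Ndufs5: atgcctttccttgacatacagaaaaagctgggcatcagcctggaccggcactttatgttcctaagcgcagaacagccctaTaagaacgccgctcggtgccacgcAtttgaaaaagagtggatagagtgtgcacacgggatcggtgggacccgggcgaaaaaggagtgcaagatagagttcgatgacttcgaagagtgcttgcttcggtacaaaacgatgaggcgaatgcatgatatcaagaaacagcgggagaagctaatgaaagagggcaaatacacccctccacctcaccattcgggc
BC002163: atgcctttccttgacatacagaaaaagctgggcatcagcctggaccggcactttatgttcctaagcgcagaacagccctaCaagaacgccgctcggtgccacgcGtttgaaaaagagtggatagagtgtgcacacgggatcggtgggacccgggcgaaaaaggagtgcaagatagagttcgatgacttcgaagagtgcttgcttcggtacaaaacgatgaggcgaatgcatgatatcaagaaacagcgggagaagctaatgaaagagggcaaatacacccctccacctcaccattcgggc
The aligner kept reads with up to 5 positions, and the part of this copy in the 0 of Ndufs5 was not tested. Other members have such copies too. Of the 85 genes, 21 had 10% or more of their 86-nt stretches in common with another annotated gene, led by Atp5g2 (86.7%), Ndufs3 (68.0%), Atp5l (66.7%, shared with 14 genes), Ndufa12 (65.9%) and Atp5h (60.5%). Their counts are less certain than those of the 50 members with no match.

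Complex II, succinate dehydrogenase, also works in the citric acid cycle. Its flavoprotein Sdha had 4373, 4619 and 4786 counts, or 65.6 ± 4.97 CPM per kb, and its iron-sulphur protein Sdhb had 1648, 1526 and 1719 counts, or 59.0 ± 0.794. The membrane anchor Sdhd was close to both, at 56.1 ± 1.67. The other anchor, Sdhc, had 1908, 1583 and 1684 counts, or 71.2 CPM, beside 69.1 CPM for Sdhd and 67.4 CPM for Sdhb. Its lower level per kb, 22.5 ± 1.62, rests on an annotated transcript of 3171 nt, against 1231 nt for Sdhd.

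In complex III, which moves electrons from ubiquinol to cytochrome c, the highest levels were those of Uqcrh, the hinge protein, at 165 ± 3.86 CPM per kb, Uqcrc1, a core protein, at 116 ± 5.87, and Uqcr11, at 105 ± 10.4. The catalytic subunits were lower. Cyc1, cytochrome c1, had 2150, 2111 and 2142 counts, or 58.1 ± 3.07 CPM per kb, and Uqcrfs1, the Rieske iron-sulphur protein, had 1304, 1243 and 1342 counts, or 39.3 ± 1.01. Uqcrc2, the partner of Uqcrc1, had 54.7 ± 3.18. Uqcrq was lowest at 37.3 ± 4.65 CPM per kb, but 140 with the shortest transcript for its coding sequence, so its place in this order depends on the transcript.

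Complex IV, cytochrome c oxidase, had the highest median per gene. Cox6a1 had 5559, 4593 and 4991 counts, or 365 ± 24.0 CPM per kb, and Cox4i1, whose protein binds ATP and tunes the enzyme, had 7027, 5851 and 6233 counts, or 344 ± 23.9. Per kb, Cox6a1 had 392, 357 and 346 and Cox4i1 had 370, 339 and 323 in clones 1, 2 and 3, so Cox6a1 was higher in every clone, and this difference was not tested. The gap depends on the transcript, at 365 and 353 with the shortest ones and 297 and 170 with all annotated exons. Of the 86-nt stretches of Cox6a1 23.9% match a processed pseudogene, against 0% for Cox4i1. With the main transcripts, Cox8a followed at 219 ± 19.2. Cox6b1, Ndufa4 and Cox5a lay at 174 ± 8.88, 165 ± 15.4 and 157 ± 8.51 CPM per kb. Ndufa4 is counted here because its protein, named for complex I, is a part of complex IV. Cox7c was the lowest of the widely used subunits, with 410, 382 and 408 counts or 30.6 ± 0.731 CPM per kb. Of its 86-nt stretches 51.0% match other annotated genes, all processed pseudogenes, of which Gm12338 had 6, 7 and 6 counts and Gm10012 had 2, 0 and 0. Their part in the low count of Cox7c was not tested.

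Complex V, ATP synthase, held the most abundant transcript of all members. Atp5b, the catalytic beta subunit, had 23891, 23985 and 26560 counts, or 535 ± 29.1 CPM per kb, above 99.1% of expressed genes. It held 39.3% of the CPM of complex V by itself. Atp5a1, the alpha subunit that alternates with beta in the catalytic head, had 10372, 10935 and 12062 counts, or 186 ± 14.98 CPM per kb. The subunits of the central stalk were lower, with Atp5c1 (gamma) at 116 ± 6.42, Atp5d (delta) at 99.4 ± 2.21 and Atp5e (epsilon) at 85.1 ± 5.48. The 5 subunits of the catalytic part thus spread 6.29-fold from Atp5e to Atp5b. Lowest among the other subunits were Atp5f1, the b subunit of the outer stalk, at 74.0 ± 3.43, Atp5j2 at 42.5 ± 2.35 and Atp5g1 at 12.9 ± 0.374 CPM per kb. The level of Atp5g1 rests on a long annotated transcript, and with the shortest transcript for its coding sequence it was 102.

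Atp5g1, Atp5g2 and Atp5g3 encode the same mature protein, the c subunit of the rotating ring, behind different targeting peptides. Atp5g1 had 1466, 1410 and 1535 counts, Atp5g2 had 2472, 2789 and 2751, and Atp5g3 had 3424, 3338 and 3521. Their shares of the family's counts were 19.4% ± 0.636, 35.3% ± 1.71 and 45.3% ± 1.12 (SD, n = 3). In counts, Atp5g3 was ahead in every clone and no 95% Wilson intervals of the 3 genes overlapped. Of the 86-nt stretches of Atp5g2, 86.7% match 2 pseudogenes, so its share is less certain. For Atp5g1 8.64% match other genes, and for Atp5g3 0%. Per kb the order is open to the choice of transcript, at 3.58, 41.9 and 54.5% with the main transcripts and 18.5, 45.4 and 36.0% with the shortest ones. Atp5g1 was lowest either way. The last 228 coding bases, which hold the mature subunit, are shown because they decide whether reads of the 3 genes can be told from each other. The bases lie at chr11:96073104-96073635, chr15:102663014-102665166 and chr2:73908593-73909296, all on the minus strand and each across an intron (GRCm38, GENCODE M21), and capitals mark the 58 positions that are not the same in all 3.
Atp5g1: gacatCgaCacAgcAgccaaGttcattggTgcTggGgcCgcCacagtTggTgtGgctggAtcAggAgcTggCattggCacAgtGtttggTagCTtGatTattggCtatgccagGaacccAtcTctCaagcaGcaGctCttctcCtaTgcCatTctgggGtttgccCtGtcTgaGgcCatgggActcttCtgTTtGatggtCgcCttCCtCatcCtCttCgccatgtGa
Atp5g2: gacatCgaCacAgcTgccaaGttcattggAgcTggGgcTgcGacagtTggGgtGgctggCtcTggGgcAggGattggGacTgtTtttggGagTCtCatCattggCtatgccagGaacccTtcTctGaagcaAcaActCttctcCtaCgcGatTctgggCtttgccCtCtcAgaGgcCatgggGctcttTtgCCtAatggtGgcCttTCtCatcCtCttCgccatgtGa
Atp5g3: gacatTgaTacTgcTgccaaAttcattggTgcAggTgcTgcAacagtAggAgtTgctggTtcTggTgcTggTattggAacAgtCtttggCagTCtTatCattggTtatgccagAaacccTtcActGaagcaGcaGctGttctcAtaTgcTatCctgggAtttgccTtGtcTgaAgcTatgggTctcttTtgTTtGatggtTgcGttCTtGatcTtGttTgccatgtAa
The remaining 170 positions were identical. Within any 86-nt stretch, Atp5g1 and Atp5g2 differed at 10 or more bases, Atp5g1 and Atp5g3 at 13 or more, and Atp5g2 and Atp5g3 at 15 or more, beyond the 2 mismatches the alignment allowed.

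The tissue isoform pairs of complex IV had near single use in MEFs. Cox4i2, the isoform of lung and of low oxygen, had 0, 3 and 2 counts beside 5851 or more of Cox4i1, and at most 0.0512% of the pair in any clone. Cox6a2, the heart and muscle partner of Cox6a1, had 13, 2 and 12 counts, or 0.172% ± 0.111 of the pair. Cox7a1, also of heart and muscle, had 6, 9 and 4 counts. The muscle isoform Cox8b and the testis isoform Cox8c were listed at 0 in every clone, with Cox8a at 3295, 2627 and 2848 counts, which allows either a share of up to 0.114% in clone 2. Cox7b2, the testis copy of Cox7b, had 0, 0 and 1 counts, and Ndufa4l2, which is induced in low oxygen, had 9, 2 and 4 beside 2763, 2098 and 2475 of Ndufa4. These 7 genes were under 1 CPM in every clone. The coding sequences within each family are 49.5 to 72.3% identical.

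**Figure D2:**
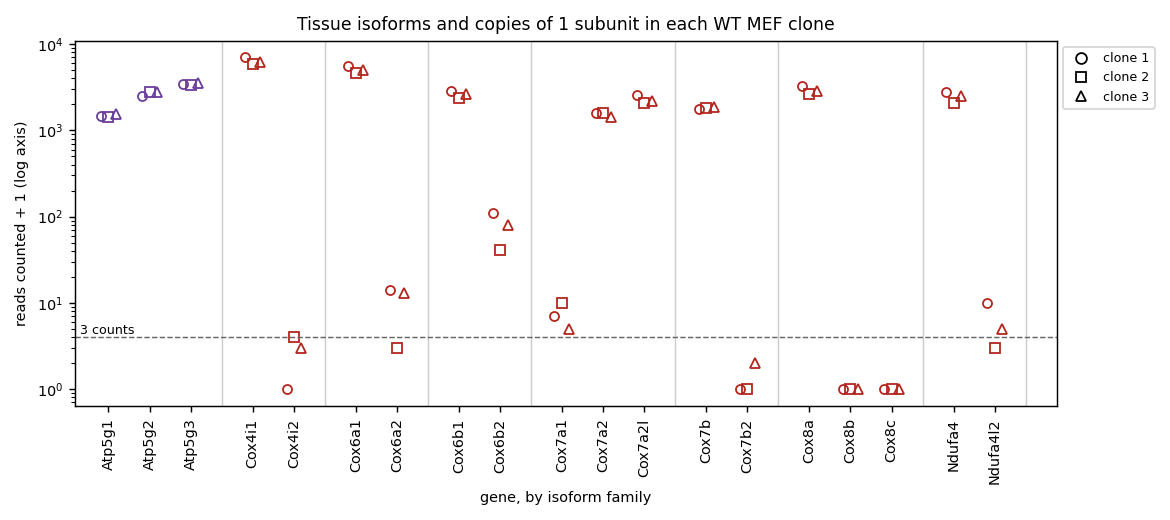
Reads counted for each member of an isoform family in each clone, plus 1, on a log axis; the dashed line marks 3 counts. In each complex IV family other than Cox7a, 1 gene holds nearly all reads, while Cox7a2 with Cox7a2l and the 3 Atp5g genes (purple) share them.

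The exceptions were Cox6b2 and the Cox7a family. Cox6b2 (chr7:4751792-4753094, minus strand, GRCm38), known as the testis isoform of Cox6b1, had 109, 40 and 79 counts, or 3.70% (95% Wilson interval 3.08 to 4.45), 1.66% (1.22 to 2.25) and 2.92% (2.35 to 3.63) of the pair. Clone 2 lay below both other clones. The testis germ cell markers had 3, 3 and 6 counts in sum. Within the Cox7a family, Cox7a2 had 1581, 1583 and 1444 counts and Cox7a2l, a factor that joins complexes III and IV into supercomplexes, had 2568, 2101 and 2200. Cox7a2l held 59.7% ± 2.52 of the family's counts, but 46.3% once both were divided by length, so their order turns with the scale.

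The sequences before the start sites of 2 pairs are shown to let a reader compare an isoform with most of the counts and one with few or 0, with CpG pairs in capitals. Cox8a has 11 pairs in the 250 bases before its start and Cox8b has 1, and Cox7a2 has 14 and Cox7a1 has 4. The pair of Cox7b, with 5, and Cox7b2, with 9, ran the other way, so the isoform with more counts did not have more CpG pairs in every pair. The 4 sequences lie at chr19:7217617-7217866 (minus strand), chr7:140900447-140900696 (minus), chr9:79759854-79760103 (minus) and chr7:30183921-30184170 (plus), and come from RefSeq (GRCm38.p6).
Cox8a: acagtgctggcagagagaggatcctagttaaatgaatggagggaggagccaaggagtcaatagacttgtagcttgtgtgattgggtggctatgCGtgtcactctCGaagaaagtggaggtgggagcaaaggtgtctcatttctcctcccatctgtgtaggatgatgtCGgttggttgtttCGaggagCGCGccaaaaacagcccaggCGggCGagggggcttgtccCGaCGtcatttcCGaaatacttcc
Cox8b: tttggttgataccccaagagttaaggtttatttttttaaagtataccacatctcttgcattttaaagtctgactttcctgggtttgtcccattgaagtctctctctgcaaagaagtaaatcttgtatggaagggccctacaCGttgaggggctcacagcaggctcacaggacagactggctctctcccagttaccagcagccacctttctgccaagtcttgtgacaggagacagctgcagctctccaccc
Cox7a2: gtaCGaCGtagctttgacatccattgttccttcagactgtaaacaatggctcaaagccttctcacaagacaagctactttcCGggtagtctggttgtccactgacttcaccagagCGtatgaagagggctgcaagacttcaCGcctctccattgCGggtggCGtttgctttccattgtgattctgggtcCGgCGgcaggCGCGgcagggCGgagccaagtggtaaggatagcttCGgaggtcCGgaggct
Cox7a1: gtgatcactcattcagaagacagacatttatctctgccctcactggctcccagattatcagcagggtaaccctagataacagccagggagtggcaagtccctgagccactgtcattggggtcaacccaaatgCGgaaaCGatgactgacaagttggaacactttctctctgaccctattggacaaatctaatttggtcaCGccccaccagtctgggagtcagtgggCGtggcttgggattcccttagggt
The RefSeq table held a promoter for 66 of the 85 members. Among the 62 expressed ones the median was 14 CpG pairs (4 to 35), against 17 for all expressed genes and 3 for genes under 1 CPM in a clone. The 4 members under 1 CPM with a promoter were Cox8b with 1, Cox7a1 with 4, Cox7b2 with 9 and Ndufs5 with 18, of which all but Cox8b lay within the range of the expressed members.

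Promoters were searched for 3 motifs, exactly and on both strands, from 250 bases before to 50 after the start. The NRF1 motif GCGCANGCG was found in 20 of 66 members (30.3%), against 15.9% of expressed genes and 10.02% of all genes in the table. The YY1 motif AANATGGCG was found in 10 (15.2%), against 6.33 and 3.86%. The GABPA motif CCGGAAGT was found in 5 (7.58%), against 9.38 and 5.83%, but with 1 mismatch allowed in 47.0%, against 40.1% of expressed genes. By complex, the NRF1 motif was in 8 of 31 promoters of complex I, 2 of 3 of complex II, 2 of 5 of complex III, 1 of 14 of complex IV and 7 of 13 of complex V. The complex IV promoter was that of Cox6a1, at chr5:115348959-115349208 on the minus strand, which is shown with its matches in capitals. Of its 3 matches, 2 overlap on opposite strands.
Cox6a1: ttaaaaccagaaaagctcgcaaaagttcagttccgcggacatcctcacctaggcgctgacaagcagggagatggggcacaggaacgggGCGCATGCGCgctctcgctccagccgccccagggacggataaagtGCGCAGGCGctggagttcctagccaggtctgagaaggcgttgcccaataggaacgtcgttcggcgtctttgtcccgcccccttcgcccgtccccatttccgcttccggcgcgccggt
The matches begin 162, 161 and 117 bases before the start. They are descriptions of letters, and binding was not measured. Of the factors themselves, Nrf1 had 503, 512 and 549 counts, Gabpa 867, 861 and 951, and Yy1 845, 911 and 1141.

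To ask whether a gene differed between clones, its 3 counts were set against the scaled library sizes in a Pearson chi-square test, with Benjamini-Hochberg adjustment over the 12218 genes with 10 or more counts in every clone. With 1 library for each clone, the test compares libraries with counting noise, and a clone, its culture and its library cannot be told apart. Of the 77 members tested, 43 (55.8%) passed an adjusted p of 0.05, against a background of 62.5% of all genes tested. Without clone 2 the shares were 46.2 and 45.3%, and without clone 1 they were 19.5 and 31.7%. Passing with a ratio of 1.5 or more from highest to lowest clone was found for 1 member, against 18.6%. The median ratio of the highest to the lowest clone was 1.11 for members and 1.24 for all genes tested, and the median biological coefficient of variation was 0.122 against 0.158. This coefficient is the tagwise value of edgeR, which is moderated toward genes of similar level, so it does not measure the spread of each gene alone. Members had a median of 57.3 CPM, against 25.7 for all expressed genes, and among genes of 100 CPM or more the test called 16 of 17 members, against 90.9% of genes, and 0 at 1.5-fold, against 7.67%.

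**Figure D3:**
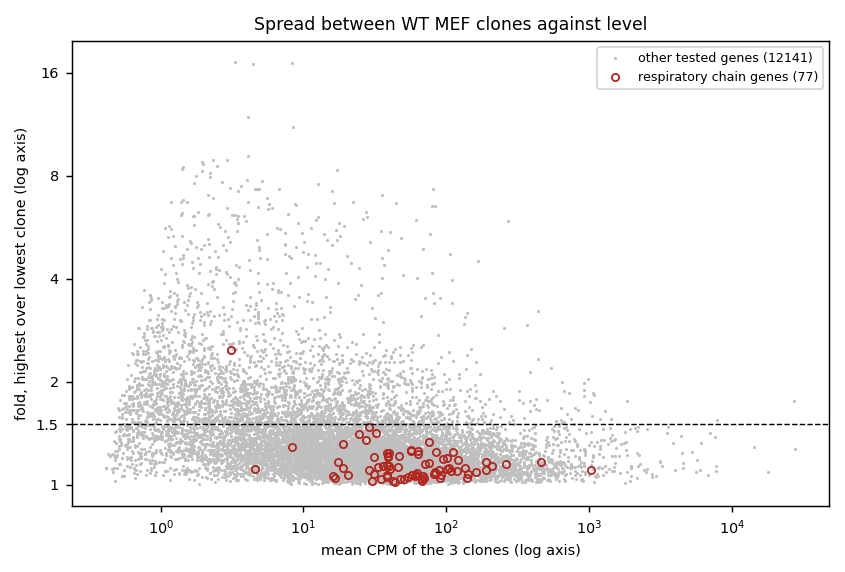
Ratio of the highest to the lowest clone against mean CPM for every gene tested, both on log axes; red circles are the 77 members and the dashed line marks 1.5-fold. Only Cox6b2, at 3.10 CPM, lies above the line among the members.

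The member past 1.5-fold was Cox6b2, with 4.39, 1.77 and 3.13 CPM and a 2.47-fold difference between clones 1 and 2 (chi-square test, adjusted p = 8.03e-06). Without clone 2 no member passed both limits. The 10 largest folds among called members of at least 10 CPM included 8 accessory subunits of complex I. Such subunits were 27 of the 77 members tested. Of the 27, 12 (44.4%) were called, below the 62.5% of all genes tested. Their median was 38.4 CPM, against 57.3 for all expressed members. Ndufv3, a subunit of the NADH-oxidising arm, led with 857, 529 and 707 counts (1.47-fold). It was highest in clone 1 and lowest in clone 2. So were Ndufa6 (721, 466 and 603 counts, 1.40-fold), Ndufa1 (790, 530 and 671 counts, 1.35-fold) and Ndufb9 (1823, 1318 and 1503 counts, 1.26-fold). Ndufa12 ran the other way, with 684, 880 and 756 counts (1.42-fold). Of its 86-nt stretches 65.9% match a processed pseudogene. Ndufa13 (1.33-fold), Ndufa7 (1.26-fold), Uqcrq (1.26-fold) and Cox6c (1.25-fold) were highest in clone 1 and lowest in clone 3. Ndufb2 (1.31-fold) was highest in clone 2. A stretch of 30.0% of Ndufa13 lies opposite another gene, and 19.5% of Ndufb9 lies under a gene on the same strand, so reads there may be shared.

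The complexes leaned in different directions between clones. Called and highest in clone 1 were 26 members (33.8% of those tested), against 23.8% of all genes tested. For clone 2 there were 14 (18.2%), against 23.5%, and for clone 3 there were 3 (3.9%), against 15.3%. Whether called or not, clones 1, 2 and 3 were the highest for 40, 29 and 8 members (52.0, 37.7 and 10.4%), against 37.6, 35.2 and 27.2% of all genes tested. These shares also moved with transcript length, and this was not tested. Of 44 members with at most 1000 nt, 17 (38.6%) were called and highest in clone 1, against a background of 25.8%. Of the 33 longer ones 9 (27.3%) were, close to the background of 23.6%. For clone 3 there were 1 of the 44 (2.27%), against 5.46%, and 2 of the 33 (6.06%), against 15.97%. Called or not, clone 3 was highest for 9.09% of the 44, against 16.23%, and for 12.1% of the 33, against 27.97%. The background for clone 3 was thus lower among short transcripts, and members lay below it at both lengths. For complexes I to V, the test called 16 of 34 (47.1%), 2 of 4, 6 of 9, 11 of 13 (84.6%) and 8 of 15 (53.3%) genes. The share of all genes tested was 62.5%. The call depends on counts, and the median CPM by complex were 38.7, 70.1, 56.7, 94.5 and 91.6. In complex I, 14 of the 16 called genes were highest in clone 1, or 41.2% of those tested, against 23.8% of all genes tested. Among them were Ndufs3, Ndufs7 and Ndufs8. In complex IV, 8 of 11 were highest there, or 61.5% of those tested, among them Cox4i1, Cox6a1, Cox8a and Ndufa4. In complex V, 1 of 8 was, Atp5e, and the other 7 (46.7% of those tested) were lowest in clone 1, against 27.1% of all genes tested. These 7 were Atp5b, Atp5a1, Atp5c1, Atp5f1, Atp5l, Atp5g2 and Atp5g3. Atp5b had 962, 1064 and 1052 CPM, a 1.11-fold difference, and Atp5a1 had 417, 485 and 478 CPM, a 1.16-fold difference. In complexes II and III, Sdha, Uqcrc1 and Uqcrc2 were called and lowest in clone 1, and Sdhc, Uqcr11 and Uqcrq were called and highest there. The chi-square test did not call Sdhb, Sdhd, Ndufv1, Ndufv2, Ndufs1, Uqcrfs1, Atp5d or Atp5g1.

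On the scale of log2(CPM + 1), each gene was centred on its mean over the clones, and the median of these deviations in clones 1, 2 and 3 was 0.07, -0.03 and -0.03 in complex I, 0.10, -0.03 and -0.05 in complex IV and -0.04, 0.04 and -0.02 in complex V. These differences are small beside those of the macrophage markers, at -0.69, 1.47 and -0.83, and the proliferation markers, at -0.60, 0.43 and 0.18, which move over the same 3 libraries. Their part in the pattern was not tested. Deviations of the members in clone 1 also ran with transcript length (r = -0.25 over 77 genes) and GC content (r = 0.26). With the trend of all genes on length and GC content removed, clone 1 stood at 0.05 in complex I, 0.06 in complex IV and -0.05 in complex V.

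**Figure D4:**
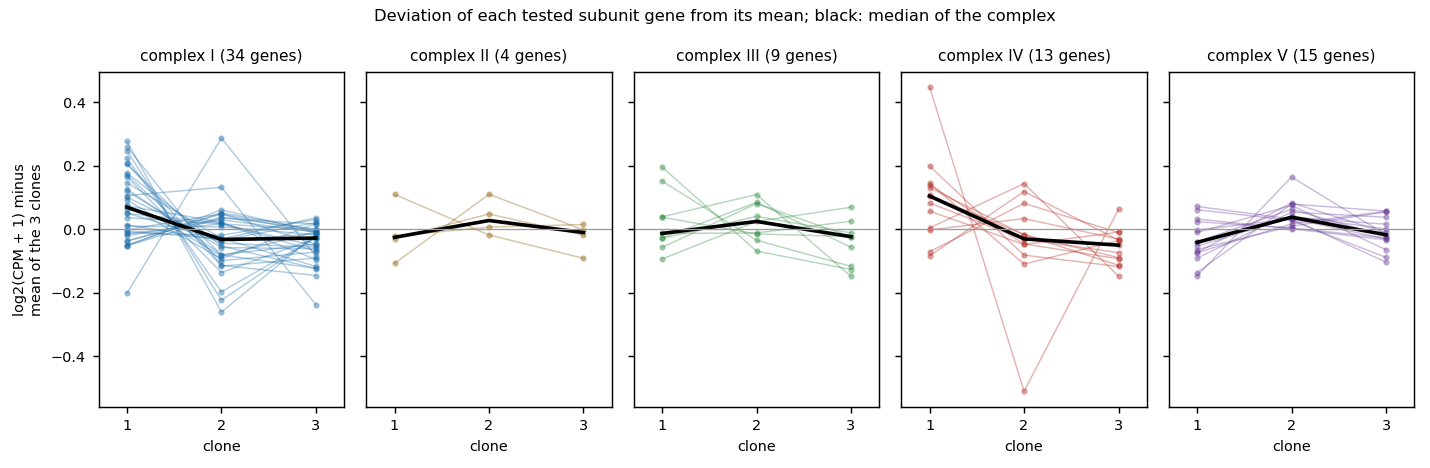
Difference between a clone's log2(CPM + 1) and the gene's mean for each tested subunit gene, joined across clones, by complex; the black line is the median. Clone 1 is above 0 in complexes I and IV at the median (0.07 and 0.10) and below 0 in complex V (-0.04), and the widest line is Cox6b2 in complex IV.

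Assembly factors had lower median levels than the subunits they put together. The table held 13 of 14, 2 of 4, 3 of 6, 19 of 20 and 3 of 3 listed factors for complexes I to V, all at 1 CPM or more. For complexes I to V, the test called 3 of 13, 2 of 2, 0 of 3, 6 of 19 and 0 of 3. The share over all genes tested was 62.5%. The call depends on counts, and the median CPM of these factors were 11.1, 17.6, 10.5, 12.7 and 20.8, against 25.7 for all expressed genes. Their median ratios of highest to lowest clone were 1.16, 1.24, 1.14, 1.15 and 1.07, against 1.11 for members and 1.24 for all genes tested. A lower share called therefore does not show a smaller spread between clones. Their medians per kb were 6.64, 17.4, 5.57, 7.87 and 11.5 CPM. Every one of these medians lay below that of the complex it serves. Levels of single genes overlapped in every complex but III. In complex II the highest factor had 30.8 and Sdhc 22.5 CPM per kb, and in complex III the highest factor had 8.75 and the lowest subunit 37.3. Taco1, a translation activator for a mitochondrial subunit of complex IV, was the only one past 1.5-fold, with 94, 130 and 144 counts (1.52-fold). Cycs, the cytochrome c between complexes III and IV, had 1624, 2012 and 2103 counts and was lowest in clone 1 (1.37-fold, called), while its testis form Cyct was listed at 0. Of 13 citric acid cycle genes 8 (61.5%) were called, close to the 62.5% of all genes tested, and their median was 34.9 CPM per kb, below that of complex I. Of 12 regulators of mitochondrial biogenesis, 10 were at 1 CPM or more. The coactivator Ppargc1a had 1, 2 and 4 counts and Ppargc1b had 9, 15 and 14, while the related Pprc1 had 2595, 2593 and 3059. The 2 members that are not subunits were low, with Atp5sl at 236, 166 and 209 counts and Atp5s at 120, 98 and 115, and neither was called.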

How the data were processed

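RNA of 3 WT MEF clones was sequenced as 86-nt single-end reads. As the methods describe, the authors aligned them with TopHat 2.0.0 (with SAMtools 0.1.16 and, as the mapper, Bowtie 0.12.7), keeping up to 5 positions and 2 mismatches, and counted genes with HTSeq. The methods name mm10 and the submitters' processing notes mm9. The HTSeq version, gene annotation and strand setting are not given in the sources used here. The deposited values are raw counts, 1 column per clone, and were analysed as deposited, without a genome build.

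TMM factors and dispersions (intercept only) came from edgeR 4.0.16 in R 4.3.3, and tests from scipy 1.17.1. The chi-square test has 2 degrees of freedom. Adjusted p-values come from that test over all genes tested. Transcripts came from GENCODE M21 (GRCm38), in which 99.7% of symbols matched. A gene's length is that of its transcript with the longest open reading frame (of equals, the longest). Wilson intervals (95%) and the limit of 3 counts cover counting error only, because PCR copies cannot be told from separate molecules. Procedures were tested on simulated data.

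The named genes are the isoform families, the catalytic subunits, the 3 highest and 3 lowest per kb in each complex, the 10 largest called folds at a mean of at least 10 CPM, members under 1 CPM in any clone and the non-subunits. 1 gene under this rule is not reported here. Members and lists were chosen with earlier results of these data known. Alternatives covered scaling (DESeq2 1.42.0), filters, lengths, pseudocount, motif mismatches, thinned counts and each clone left out.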

Additional observations from a re-analysis of the deposited data

How the results depend on the processing

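No paired analysis was possible because there is 1 group. The 43 called members (55.8%, against 62.5% of all genes) became 15 without clone 1 (19.5 against 31.7%), 36 without clone 2 (46.2 against 45.3%), 40 without clone 3 (51.9 against 53.0%) and 8 with counts thinned to 1 in 10 (10.7 against 19.8%), where the call is limited by depth. The share of members called was thus below that of all genes in these settings except without clone 2. With no filter beyond 1 count it was also slightly above, at 41 of 82 members (50%) against 48.1% of genes. Passing at 1.5-fold became 0 of 77 without clone 2, 0 with at least 100 counts in every clone, which leaves out Cox6b2, and 4 with thinned counts. Called and highest in clone 3 became 6 with unscaled totals and 7 without clone 2, and highest in clones 1, 2 and 3 became 4, 3 and 1 with thinned counts. Medians per kb with all annotated exons were 23.7, 38.1, 46.3, 64.0 and 46.8 for complexes I to V. With the shortest transcript, a choice made after the data were seen, they were 47.3 for complex I, 90.1 for complex III, 157 for complex IV and 116 for complex V. Complex III ranged from 78.3 to 80.8 when a clone was left out. The median deviation of all members in clone 2 was 0.01. It ranged from -0.013 without clone 3 to 0.019 without clone 1, and turned to -0.022 with the trend on length and GC content removed, also added later, which took that in clone 3 from -0.03 to 0.0097. Shares per kb were 54.5% for Atp5g3, 95.7% for Cox6b1 and 46.3% for Cox7a2l with the main transcripts. They were 36.0, 95.7 and 46.3% with the shortest, and 48.5% for Cox7a2l and 99.9% for Cox4i1 with all exons. Motifs with 1 mismatch were in 60.6% (NRF1), 47.0% (GABPA) and 36.4% (YY1) of member promoters, against 51.5, 40.1 and 23.7% of expressed genes, so GABPA turned from below to above the expressed genes and the gap for NRF1 narrowed as a ratio. The causes of these changes were not tested. In 120 other pairs of a main result and an alternative, the value kept its direction and moved by less than the spread between clones, or by less than 1.5 times for a count. Levels of single genes per kb moved beyond the spread between clones for 65 of 75 with all exons, for 12 of 75 with the shortest transcript and for at most 3 of 75 with a clone left out.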
